A study of Mus musculus with 9 samples.

Results

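The growth hormone axis of the liver was followed in 10 genes through 9 mouse liver RNA libraries. They were Ghr, Igf1, Igfals, Socs2, Cish, Mup3, Mup4, Mup20, Elovl3 and Hsd3b5, 10 of the 56719 genes in the count files, matched by gene symbol to their Ensembl identifiers. The 10 genes were picked with earlier results of the same libraries known, so their own fold changes and the number of them past a threshold describe what was chosen and are no independent evidence. All libraries came from livers of C57BL/6J mice, with 3 libraries in each of 3 groups. WT mice were gavaged with PBS over the transfer period and then received PBS by tail vein. Con A mice had the same PBS gavage and then concanavalin A (Con A), a lectin from jack bean whose action on T cells causes hepatitis, at 10 mg/kg by tail vein. FMT-Con A mice were gavaged for 4 weeks with a suspension of faeces from mice with Con A hepatitis (fecal microbiota transplantation, FMT), and then received Con A at 10 mg/kg. Con A against WT shows the acute injury, and FMT-Con A against Con A adds the transferred faeces to the same injury. FMT-Con A against WT differs in both. No deletion or transgene is given for any group, the strain was shared by all of them, and the labels give neither the ages nor the hours between injection and collection. A group with transferred faeces but no Con A, or one gavaged with faeces of healthy mice, was not analysed here, so faeces of diseased donors cannot be told apart from transferred faeces of any source.

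Growth hormone is made in the pituitary and acts on hepatocytes through its receptor GHR, which carries the kinase JAK2 and leads to phosphorylation of the transcription factor STAT5B. STAT5B drives transcription of Igf1, the growth factor that the liver releases into blood, and of Igfals, whose product holds IGF1 and IGFBP3 together in the circulating ternary complex. It also drives Socs2 and Cish, whose proteins inhibit the receptor signal. The pulsed release of growth hormone in male mice keeps a set of male-biased liver genes high, among them many major urinary protein (Mup) genes, Elovl3 and Hsd3b5. Neither the hormone nor the phosphorylation of its signalling proteins was measured, and all values below are transcript levels.

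Sequence near a RefSeq start of 2 of the targets holds the motif through which STAT5 is known to act, and is shown for that reason. The motif TTCNNNGAA, which reads the same on both strands, is the core that STAT5 recognises. It was searched in RefSeq promoter windows of GRCm38.p6, each running from 250 bases before a RefSeq start to the end of a 300-base window. It occurred in 2726 of 32851 windows (8.3%). A window was found for 7 of the 10 genes, 10 windows in all, since some genes have several starts. Socs2, Mup20 and Elovl3 were not searched. Only Cish and Igfals among those 7 held the motif, in 3 windows, and the capitals below mark each match. The Cish stretch lies at chr9:107296654-107296683 on the + strand, in annotated exon and UTR. Its matches begin at positions 1 and 12 from the RefSeq start. The Igfals stretches lie at chr17:24877598-24877627 and chr17:24878163-24878192, both + strand and outside annotated exons, with matches 236 and 58 bases before the start of their windows' transcripts. These RefSeq starts of Cish and Igfals lie inside the gene spans given below, which come from another annotation and begin further upstream.
Cish: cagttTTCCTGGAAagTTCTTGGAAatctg
Igfals, first start: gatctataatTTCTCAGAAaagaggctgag
Igfals, second start: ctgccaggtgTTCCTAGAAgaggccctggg
These are letters found in a window and were not tested as binding sites in these libraries.

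The labels conflict on sex, which matters here because the Mup genes, Elovl3 and Hsd3b5 are male-biased: 1 field says male and another female. The Y-linked genes Ddx3y, Uty, Eif2s3y and Kdm5d were counted in all 9 libraries, Ddx3y with 2676 to 6192 reads and Uty with 427 to 935 reads. Xist, the X-inactivation transcript of females, had 21 to 139 reads, or 1.04 to 6.36 CPM (reads scaled to a fixed library total). The Y-linked counts go against the female label in every library.

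Levels are CPM of the TMM-scaled library, and log2 fold changes carry the standard error (SE) of edgeR's quasi-likelihood fit to all 9 libraries. A gene is said to have risen or fallen only where the Benjamini-Hochberg adjusted p over 17704 tested genes was under 0.05. All 10 genes passed the low-count filter. Library totals were 20513051 to 29466806 counts. The labels number the replicates of a group but do not say how the mice were kept. A p-value here therefore rests on library-to-library spread, which may be technical. Defining hepatocyte genes were abundant in every library: all 10 of the marker list were counted, at a summed level of 62310 to 75740 CPM of total counts in WT, 66610 to 70860 in Con A livers and 50440 to 55570 in FMT-Con A livers. Skeletal muscle genes differed widely between libraries, also within a group. Their 24 genes summed to 57.9 to 73.4 CPM in WT, to 13.4, 24.3 and 2371 in the Con A libraries 1, 2 and 3, and to 22400, 2117 and 22310 in the FMT-Con A libraries 1, 2 and 3, where all 24 were counted. Cacna1s was at 0 in 2 WT libraries and in Con A libraries 1 and 2. Of the 23 muscle genes tested, 19 rose and 0 fell with Con A, although the sums of Con A libraries 1 and 2 lay under WT. From Con A to FMT-Con A 4 rose and 0 fell, and from WT to FMT-Con A 23 rose and 0 fell. Called shares were 82.6%, 17.4% and 100%, beside 63.4%, 16.8% and 59.0% of all genes. Adipocyte genes summed to 32.1 to 80.9, 197 to 268 and 264 to 476 CPM in the 3 groups. Of the 7 listed, 3 rose and 0 fell with Con A (42.9%, beside 63.4% of all genes), but their median log2 fold change was -1.32. From Con A to FMT-Con A 0 of the 7 were called (median 2.77), beside 16.8% of all genes. FMT-Con A libraries 1 and 3 were the closest pair of all. Transcripts of the mitochondrial genome made up 19.6 to 22.4% of WT counts, 5.03 to 9.96% of Con A counts and 7.44 to 11.7% of FMT-Con A counts. In bulk liver, fewer hepatocytes and less RNA per hepatocyte cannot be told apart, and the part of these mixtures in the results was not tested, beyond giving the values without FMT-Con A libraries 1 and 3.

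Transcripts of the receptor were lower after Con A and lower again in the mice with transferred faeces. Ghr (ENSMUSG00000055737, chr15:3317760-3583492, - strand) had 538, 575 and 542 CPM in WT livers, 379, 263 and 235 in Con A livers, and 155, 231 and 169.7 in FMT-Con A livers. The 3 groups did not overlap, although Con A library 3 and FMT-Con A library 2 nearly met. Ghr fell 1.89-fold from WT to Con A (log2 fold change -0.92, SE 0.21) and was 2.98-fold lower in FMT-Con A than in WT (-1.58, SE 0.22). The further step between the Con A groups, -0.66 (SE 0.21), did not pass the test. It passed without Con A library 3 (-0.79), without FMT-Con A library 2 (-0.83), without the low-count filter and in DESeq2's Wald test. Alb, the most abundant hepatocyte marker, was 33240 to 44920 CPM in WT livers, 33780 to 38000 in Con A livers and 17800 to 20170 in FMT-Con A livers. Alb thus lay under WT in FMT-Con A, as Ghr did, but overlapped WT in Con A. The 10 hepatocyte markers did not all move so: 5 rose and 2 fell with Con A (median 0.35). From Con A to FMT-Con A 0 rose and 3 fell (median -0.48), and from WT to FMT-Con A 2 rose and 4 fell (median -0.265). Called shares were 70%, 30% and 60%, beside 63.4%, 16.8% and 59.0% of all genes.

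The secreted products fell with Con A to very different extents. Igf1 (ENSMUSG00000020053, chr10:87858265-87937042, + strand) had 975, 1069 and 1001 CPM in WT livers, 655, 739 and 490.4 in Con A livers, and 475, 734 and 469 in FMT-Con A livers. It fell 1.62-fold with Con A (-0.69, SE 0.22), a call that was lost without Con A library 3 (-0.53), and was lower in FMT-Con A than in WT (-0.86, SE 0.22). The 2 Con A groups overlapped, with a difference of -0.17 (SE 0.22). That difference was 0.23 without FMT-Con A libraries 1 and 3, and the one from WT was then -0.47 and no longer passed.

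Igfals (ENSMUSG00000046070, chr17:24865997-24882010, + strand), which encodes the acid-labile subunit, had 83.1, 86.0 and 115 CPM in WT. Its Con A libraries stood at 16.6, 11.2 and 6.13, and those of FMT-Con A at 16.1, 20.2 and 13.4. Every injured library lay far under the lowest WT library. Igfals fell 8.42-fold in Con A (-3.07, SE 0.33) and 5.73-fold in FMT-Con A (-2.52, SE 0.32) against WT. Its level in FMT-Con A differed from Con A by 0.56 (SE 0.31), with overlapping libraries and no call. Unlike Ghr, its FMT-Con A mean was therefore not under its Con A mean.

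**Figure D1:**
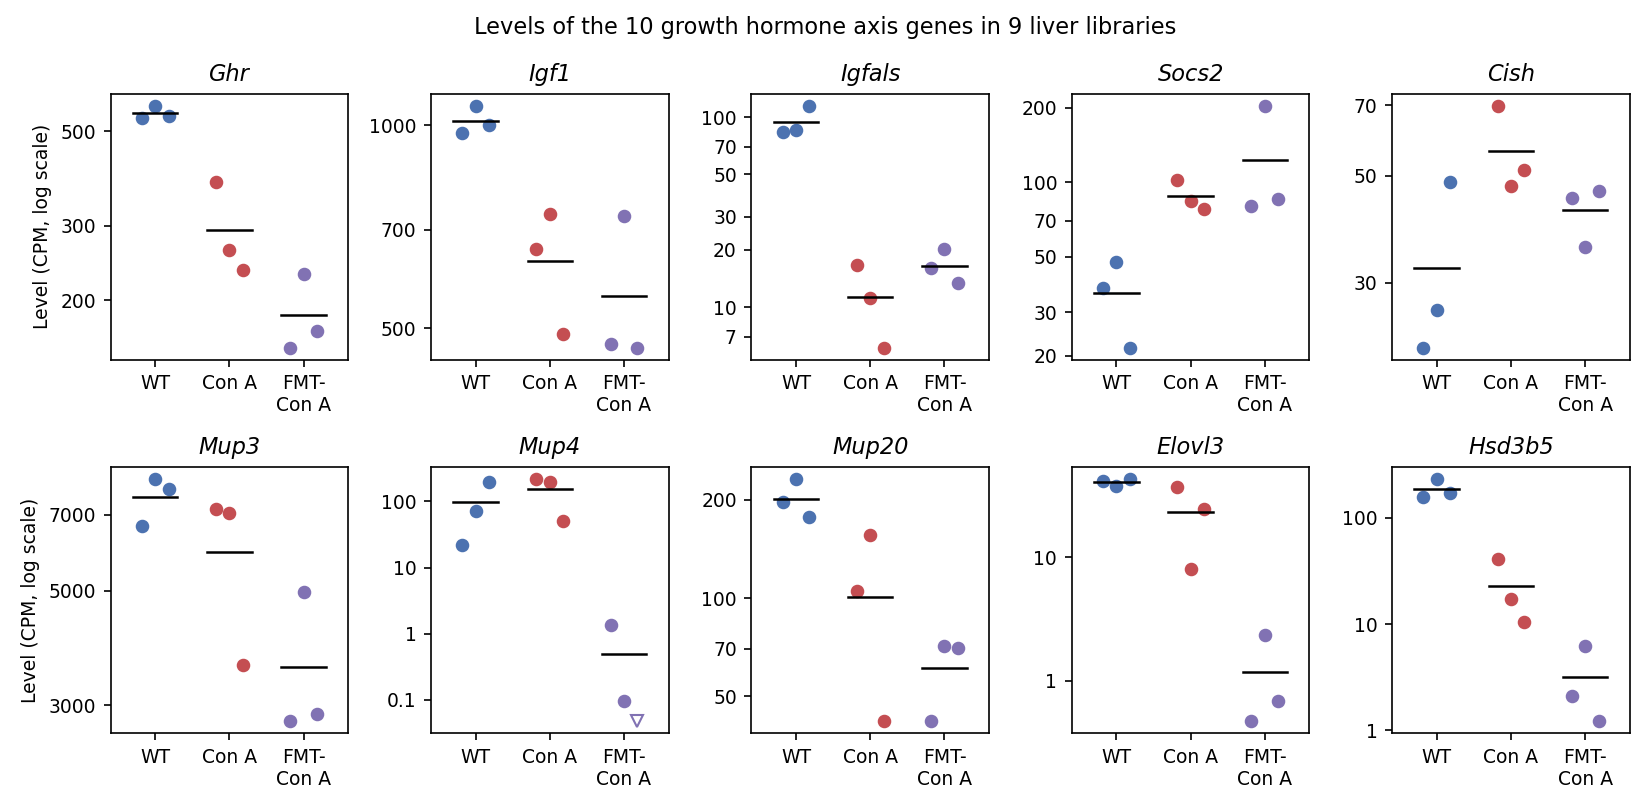
Level of each of the 10 genes (CPM of the TMM-scaled library, log axis) in the 9 libraries, 1 point per library in the order 1 to 3 within a group, with the group mean as a bar; the open triangle stands for the 0 of Mup4 in FMT-Con A library 3, drawn under the lowest measured value. Igfals and Hsd3b5 are low in every Con A library, while Mup4 and Elovl3 are low in the FMT-Con A libraries, at 0 to 1.36 CPM and 0.473 to 2.37 CPM.

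Both feedback inhibitors in the set rose with Con A, opposite in sign to Igf1 and Igfals. Socs2 (ENSMUSG00000020027, chr10:95385362-95417180, - strand), whose product tags the receptor for degradation, had 37.5, 47.9 and 21.6 CPM in WT livers, 102, 84.2 and 78.0 in Con A livers, and 80.0, 204 and 85.5 in FMT-Con A livers. It rose 2.47-fold with Con A (1.31, SE 0.38), a call lost without WT library 3 (1.03), and 3.45-fold in FMT-Con A against WT (1.79, SE 0.39). No Con A or FMT-Con A library overlapped WT. The 2 Con A groups differed by 0.48 (SE 0.38), which did not pass and rested on FMT-Con A library 2: without it the difference was -0.08.

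Cish (ENSMUSG00000032578, chr9:107296026-107302784, + strand) had 22, 26.3 and 48.4 CPM in WT livers, 69.8, 47.5 and 51.4 in Con A livers, and 44.8, 35.6 and 46.6 in FMT-Con A livers. WT library 3 reached into the range of Con A. Cish rose 1.75-fold with Con A (0.80, SE 0.28), and the call was lost without WT library 1 (0.56), WT library 2 (0.65) or Con A library 1 (0.62). FMT-Con A did not pass against Con A (-0.41, SE 0.27) or against WT (0.39, SE 0.28), but it passed against WT without WT library 3 (0.82). The antisense genes Gm17041 and Gm17040 overlap 7.46% and 4.07% of the Cish exon bases, and no strand setting is given, so their reads cannot be told apart from those of Cish.

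The male-biased steroid enzyme gene Hsd3b5 was the one member that fell at both steps. Hsd3b5 (ENSMUSG00000038092, chr3:98618634-98630252, - strand) had 157, 233 and 174 CPM in WT livers, 41.5, 17.4 and 10.5 in Con A livers, and 2.08, 6.26 and 1.22 in FMT-Con A livers. The 3 groups did not overlap. It fell 8.14-fold with Con A (-3.03, SE 0.60) and another 7.37-fold from Con A to FMT-Con A (-2.88, SE 0.62). That second call was lost with only the 6 libraries compared (-2.83) and without Con A library 1 (-2.13), FMT-Con A library 1 (-2.63), FMT-Con A library 3 (-2.48) or both of those FMT-Con A libraries (-1.88). FMT-Con A was 60-fold lower than WT (-5.91, SE 0.70). Hsd3b5 shares 1.21% of its 150-base stretches with the related genes Gm10681 and Hsd3b4, and 21.2% of its 50-base stretches with 8 genes.

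Elovl3 (ENSMUSG00000038754, chr19:46131897-46135694, + strand), which elongates very long chain fatty acids, had 41.3, 37.9 and 43.0 CPM in WT. Con A libraries held 36.9, 8.04 and 24.8 CPM and FMT-Con A libraries 0.473, 2.37 and 0.686. All Con A libraries were under WT, but by -0.81 (SE 0.52), which did not pass. Elovl3 fell 20.8-fold from Con A to FMT-Con A (-4.38, SE 0.64) and 36.5-fold from WT to FMT-Con A (-5.19, SE 0.65). Without FMT-Con A libraries 1 and 3 the difference from Con A was -3.29 and no longer passed, with 1 library left in that group. The least affected FMT-Con A library, number 2, still held less than the lowest Con A library.

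**Figure D2:**
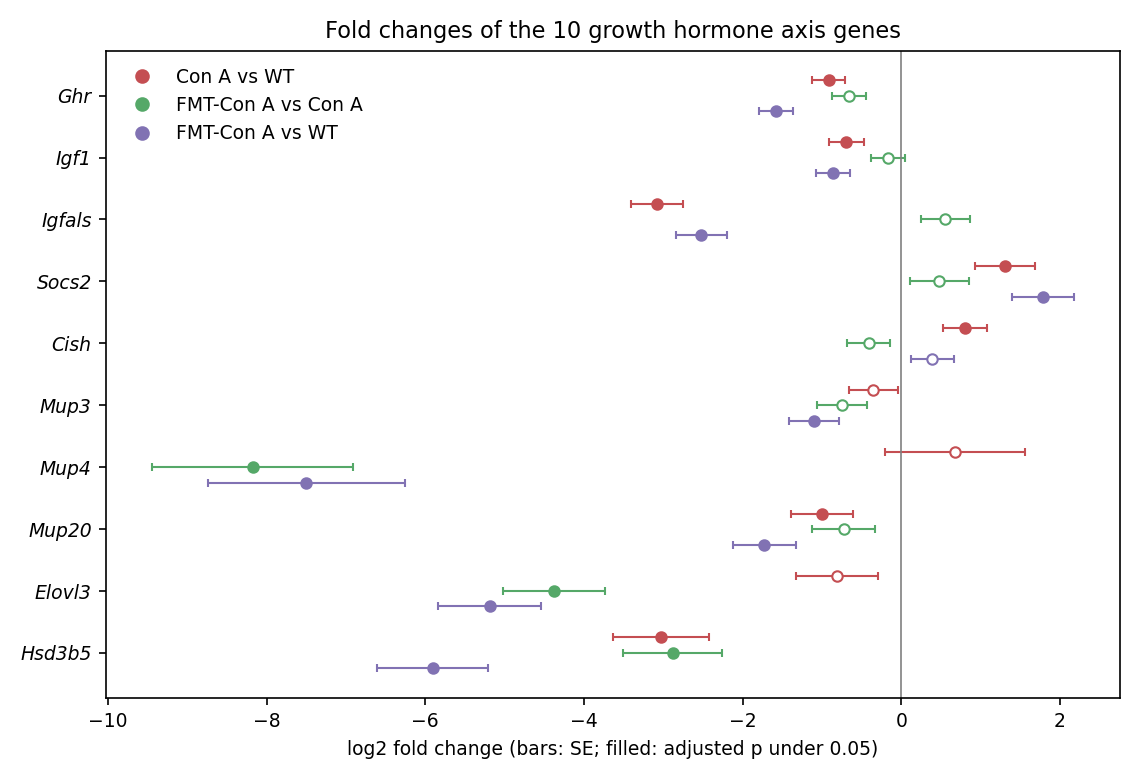
Log2 fold change of each of the 10 genes in the 3 comparisons, with bars of 1 SE; filled points had an adjusted p under 0.05 and open points did not. Igfals lies at -3.07 for Con A and at 0.56, an open point, between the Con A groups, whereas Elovl3 and Mup4 lie at -4.38 and -8.18 between the Con A groups.

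The major urinary proteins, which bind pheromones and are secreted by the liver, are represented by 3 genes. Mup3 and Mup4 have near-identical relatives in 1 cluster, and their promoters are alike over the stretch shown. The stretch of Mup3 at chr4:62087348-62087437 (- strand) ends 30 bases before its RefSeq start, which lies inside the gene span given below. That of Mup4 is at chr4:59960719-59960808 (- strand). The Mup4 stretch was taken at the ungapped alignment with the most matches. At that alignment the stretches share 82 of 90 bases (91.1%), and capitals mark the 8 that differ.
Mup3: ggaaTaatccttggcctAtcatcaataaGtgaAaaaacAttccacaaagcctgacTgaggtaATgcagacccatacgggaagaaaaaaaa
Mup4: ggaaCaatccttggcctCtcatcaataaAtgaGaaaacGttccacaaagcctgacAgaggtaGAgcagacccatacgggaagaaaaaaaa
In the transcripts, no 150-base stretch of Mup3 or Mup4 was shared with another gene, against 31.1% of those of Mup20, all with the pseudogene Mup-ps19. At 50 bases the shares were 13.3%, 12.4% and 50.5%. How the counting treated reads that match several genes is not given, so Mup values are uncertain, that of Mup20 above all.

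Mup3 (ENSMUSG00000066154, chr4:62083476-62087342, - strand) had 6656, 8206 and 7862 CPM in WT livers, 7192, 7045 and 3588 in Con A livers, and 2798, 4967 and 2887 in FMT-Con A livers. Con A libraries 1 and 2 lay within the WT range and library 3 did not. Mup3 did not pass in Con A (-0.35, SE 0.31) and fell 2.13-fold in FMT-Con A against WT (-1.09, SE 0.32). That call was lost without FMT-Con A library 1 (-0.93), library 3 (-0.95) or both (-0.61). FMT-Con A against Con A was -0.74 (SE 0.31) and passed without Con A library 3 (-1.0), without FMT-Con A library 2 (-1.05) and in DESeq2's Wald test.

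Mup4 (ENSMUSG00000041333, chr4:59956804-59960710, - strand) had 22, 72.2 and 197 CPM in WT and 218, 199 and 49.9 in Con A. In FMT-Con A it was nearly absent, at 1.36, 0.095 and 0 CPM, from 43, 2 and 0 reads. The Con A libraries overlapped WT, with a difference of 0.68 (SE 0.88) that did not pass. Mup4 fell from Con A to FMT-Con A (log2 fold change -8.18, SE 1.26) and was lower there than in WT (-7.50, SE 1.24). With so few reads the size of that fold is poorly fixed. The difference from Con A was -10.59 without FMT-Con A libraries 1 and 3, with no call.

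Mup20 (ENSMUSG00000078672, chr4:62050234-62054158, - strand), which encodes darcin, a male urinary pheromone, had 197, 231 and 177 CPM in WT livers, 105, 156 and 42.2 in Con A livers, and 42.0, 71.2 and 70.1 in FMT-Con A livers. It fell 2.00-fold in Con A (-1.0, SE 0.39), a call lost when any WT library, Con A library 1 or 3, or FMT-Con A library 3 was left out (-0.62 to -1.10). It fell 3.30-fold in FMT-Con A against WT (-1.72, SE 0.40), which no longer passed without FMT-Con A libraries 1 and 3 (-1.50). Between the Con A groups the difference was -0.73 (SE 0.39), passing only without Con A library 3 (-1.09). The pseudogene that shares its sequence was far lower, at 15.2 to 21.8 CPM in WT.

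Because reads can be split within the family, the 49 annotated Mup genes were also summed. The sum was 15450, 24740 and 16710 CPM in WT livers, 23690, 16940 and 9140 in Con A livers, and 8811, 19320 and 8408 in FMT-Con A livers. All pairs of groups overlapped, since FMT-Con A library 2 and Con A library 1 lay within the WT range. The log2 difference was -0.27 for Con A against WT (exact two-sided permutation p = 0.7), -0.45 for FMT-Con A against Con A (exact p = 0.5) and -0.72 for FMT-Con A against WT (exact p = 0.3). With 3 libraries against 3, the exact permutation test cannot give less than p = 0.1. The first of these turned to 0.11 without Con A library 3. The 3 lowest sums were in Con A library 3 and FMT-Con A libraries 1 and 3, whose muscle sums of 2371, 22400 and 22310 CPM stand above. FMT-Con A library 2, with a muscle sum of 2117 CPM, had a Mup sum of 19320 CPM, within the WT range. The part of muscle RNA in these sums was not tested. The 3 chosen genes made up 26.1 to 49.3% of the sum.

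Of the 46 other Mup genes, 28 were tested. Called shares of the 28 were 46.4% in Con A against WT, 14.3% in FMT-Con A against Con A and 64.3% in FMT-Con A against WT. Over all genes the shares were 63.4% (30.9% lower), 16.8% (10.6% lower) and 59.0% (27.9% lower). In Con A against WT 13 of the 28 Mup genes fell and 0 rose (13 fell and 0 rose also at an unadjusted p under 0.05). In FMT-Con A against Con A 3 fell and 1 rose, and in FMT-Con A against WT 17 fell and 1 rose. Mup17 was the one that rose. Its level was 2196, 1561 and 1308 CPM in WT livers, 1843, 1435 and 985 in Con A livers, and 3030, 5319 and 2568 in FMT-Con A livers. The adjusted p of edgeR was 0.026 against Con A (1.36, SE 0.34) and 0.0164 against WT (1.11, SE 0.33). The first call was lost without Con A library 1 (1.61), Con A library 3 (1.154) or FMT-Con A library 1 (1.48), and the second without WT library 2 (1.06) or 3 (0.96). With only the 6 libraries compared, the first call was also lost (1.395). Mup17 was higher in each FMT-Con A library than in each other library, and Mup4 was lower in each.

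**Figure D3:**
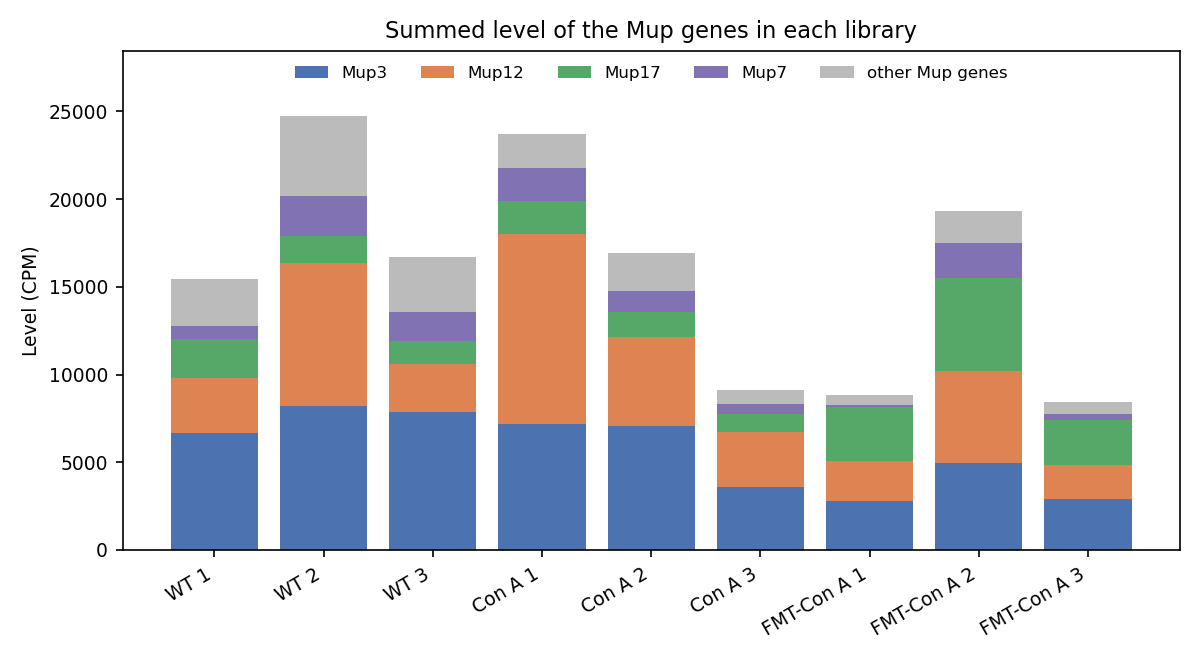
Stacked bars of the level (CPM, linear axis from 0) of Mup3, Mup12, Mup17, Mup7 and all other Mup genes in each library; the full bar is the sum over 49 Mup genes. The sum runs from 8408 CPM in FMT-Con A library 3 to 24740 CPM in WT library 2, and Mup17 takes a larger part in the FMT-Con A libraries, at 2568 to 5319 CPM.

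Across the set, 7 of the 10 genes were called in Con A against WT, 2 higher and 5 lower, beside 63.4% of all genes tested (32.5% higher and 30.9% lower). In FMT-Con A against Con A 3 were called, all lower, beside 16.8% of all genes (10.6% lower). FMT-Con A against WT gave 9 calls, 1 higher and 8 lower, beside 59.0% (31.2% higher and 27.9% lower). The genes were chosen on these comparisons, so nothing is read from those counts. Groups did not overlap for 7, 5 and 9 members, beside 69.8%, 32.7% and 69.1% of all genes. In Con A against WT 1 of them was higher in every library and 6 lower (35.0% and 34.8% of all genes), in FMT-Con A against Con A 0 were higher and 5 lower (14.0% and 18.8%), and in FMT-Con A against WT 1 was higher and 8 lower (35.4% and 33.7%). The median log2 fold change of the 10 was -0.75, -0.69 and -1.65 in that order, against 0.01, -0.01 and 0.03 over all genes. The comparisons share libraries and their values are therefore not independent of each other.

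Per kilobase of exon, the order of the levels changed. In WT, Mup3 led at 7093 CPM per kb, followed by Mup20 (217), Hsd3b5 (121), Mup4 (105), Igf1 (103), Ghr (60.9), Igfals (29.9), Elovl3 (20.6), Cish (5.02) and Socs2 (3.74). The ranges of mean ± SD overlapped between neighbours for Hsd3b5, Mup4 and Igf1, and for Cish and Socs2. In Con A the order was Mup3 (5564), Mup4 (169), Mup20 (109), Igf1 (63.4), Ghr (32.3), Hsd3b5 (14.9), Elovl3 (11.8), Socs2 (9.26), Cish (8.77) and Igfals (3.56). By the same ranges, neighbours from Mup4 to Igf1 and from Ghr to Cish were not separate. In FMT-Con A the order was Mup3 (3325), Mup20 (65.8), Igf1 (56.4), Ghr (20.5), Socs2 (12.9), Cish (6.60), Igfals (5.23), Hsd3b5 (2.06), Elovl3 (0.596) and Mup4 (0.525). There the pairs Mup20 and Igf1, Ghr and Socs2, Socs2 and Cish, Cish and Igfals, Hsd3b5 and Elovl3, and Elovl3 and Mup4 were not separate. Socs2, the lowest of the 10 in WT, thus stood above 5 of the others in FMT-Con A by its mean.

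The genes whose log2 CPM followed these members most closely over the 9 libraries were taken by Pearson's r, as a description. For Ghr they were Cdk6 (0.995), Hgd (0.993) and Il1rap (0.992). For Igf1 they were Apoa1 (0.990), Cyp2d12 (0.986) and Slc22a18 (0.983). Those of Hsd3b5 were Slc25a21 (0.994), Cnp (0.990) and Ugt2b35 (0.990). All points share the same 3 groups and libraries.

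Around the receptor, signalling genes went both ways with Con A, where Ghr fell. Of 10 genes for receptors and JAK-STAT signalling, 6 rose and 2 fell in Con A against WT (median 1.00, against 0.01 for all genes), 0 rose and 3 fell from Con A to FMT-Con A (median -0.41; 0 higher and 6 lower at an unadjusted p under 0.05), and 5 rose and 2 fell from WT to FMT-Con A (median 0.48). Called shares of the 10 were 80%, 30% and 70%. Over all genes tested, 32.5% were higher and 30.9% lower in Con A than in WT, 63.4% in all. From Con A to FMT-Con A 16.8% of all genes were called, and from WT to FMT-Con A 59.0%. Like all gene lists below, this one was drawn up with earlier results of these data known. Jak2, the kinase bound to the receptor, had 12.3 to 15.1 CPM in WT livers, 49.2 to 80.7 in Con A livers and 30.3 to 34.9 in FMT-Con A livers. It rose with Con A (2.30, SE 0.18, edgeR adjusted p = 4.58e-06) and was lower in FMT-Con A than in Con A (-0.98, SE 0.17, adjusted p = 0.00814). Its 3 groups did not overlap, with FMT-Con A between the others. Adam17, the protease that sheds the receptor from the cell surface, took the same order, at 2.19 (SE 0.17) and -1.16 (SE 0.17), with adjusted p of 4.69e-06 and 0.00403. Without FMT-Con A libraries 1 and 3 the second steps of Jak2 (-1.11) and Adam17 (-1.34) had no call. Leukocyte genes moved in the same libraries. The 12 genes of a T and NK cell list summed to 9.33 to 11.2 CPM of total counts in WT livers, 46.2 to 77.1 in Con A livers and 22.6 to 26.2 in FMT-Con A livers, the same order as Jak2. Of its 11 tested genes 9 rose and 1 fell with Con A, and 0 rose and 6 fell from Con A to FMT-Con A. The 10 genes of a neutrophil list summed to 10.2 to 15.4, 245 to 459 and 237 to 336 CPM in the 3 groups, and all 10 rose with Con A. From Con A to FMT-Con A, 0 of the 10 rose and 1 fell. Every gene of both lists was counted in all 6 libraries from Con A livers, with or without FMT, and Klrb1c, Ly6g and Mmp25 were each at 0 in 1 WT library. The part of these cells in the levels of Jak2, Adam17, Stat5a, Ptpn2 and the other signalling genes was not tested.

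Stat5b, the main growth hormone responsive STAT of liver, did not pass in Con A (0.08, SE 0.19, edgeR adjusted p = 0.729) or in FMT-Con A against Con A (-0.47, SE 0.19, adjusted p = 0.114). Its WT libraries lay at 36.9 to 44.9 CPM, its Con A libraries at 34.1 to 51.6 and its FMT-Con A libraries at 24.0 to 36.6. Each FMT-Con A library was thus under every WT library, but that difference did not pass (-0.39, SE 0.19, adjusted p = 0.103). Stat5a rose with Con A (1.12, SE 0.20, adjusted p = 0.0009) and fell from Con A to FMT-Con A (-0.70, SE 0.20, adjusted p = 0.0415). Stat3, which acts downstream of interleukin-6, rose by 2.63 (SE 0.22) in Con A and did not pass between the Con A groups, at -0.58. Prlr, the related prolactin receptor, fell with Con A like Ghr (-0.76, SE 0.21, adjusted p = 0.00899) and was -0.02 between the Con A groups. The fall of Stat5a from Con A to FMT-Con A lost its call without any 1 of 7 libraries, all but WT library 3 and Con A library 2 (-0.55 to -0.80). It was also lost with only the 6 libraries compared (-0.67). The Stat5b difference there passed without Con A library 2 (-0.61) and with a replicate block (-0.47). Against WT, Stat5b in FMT-Con A passed with a replicate block (-0.41). It was -0.785 without FMT-Con A libraries 1 and 3, with 1 library left in that group.

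Among 10 signal inhibitors other than the members, 7 rose and 2 fell with Con A, 0 rose and 1 fell from Con A to FMT-Con A (1 higher and 1 lower at an unadjusted p under 0.05), and 7 rose and 1 fell from WT to FMT-Con A. The medians were 0.76, -0.10 and 0.74. Called shares of the 10 were 90%, 10% and 80%, beside 63.4%, 16.8% and 59.0% of all genes. Socs1, an inhibitor of JAK kinases, went from 0.183 to 0.795 CPM in WT to 47.7 to 66.2 in Con A livers and 67.1 to 75.8 in FMT-Con A livers, a rise with Con A of 6.87 (SE 0.33, edgeR adjusted p = 3.28e-07). Socs3 rose from 6.45 to 14.6 CPM to 151 to 309 (4.53, SE 0.37, adjusted p = 5.6e-06). The rises of Socs2 and Cish in the same libraries were 1.31 and 0.80. Neither Socs1 (0.36, SE 0.23, adjusted p = 0.295) nor Socs3 (-0.08, SE 0.32, adjusted p = 0.88) passed between the Con A groups. The phosphatase genes Ptpn1 and Ptpn2 rose by 2.55 (SE 0.19) and 2.72 (SE 0.18) with Con A. Ptpn2 was the 1 gene of the list lower in FMT-Con A than in Con A (-0.78, SE 0.17, adjusted p = 0.0159), a call lost without Con A library 1 (-0.56), FMT-Con A library 1 (-0.75) or FMT-Con A library 3 (-0.79). That call was also lost with only the 6 libraries compared (-0.75).

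**Figure D4:**
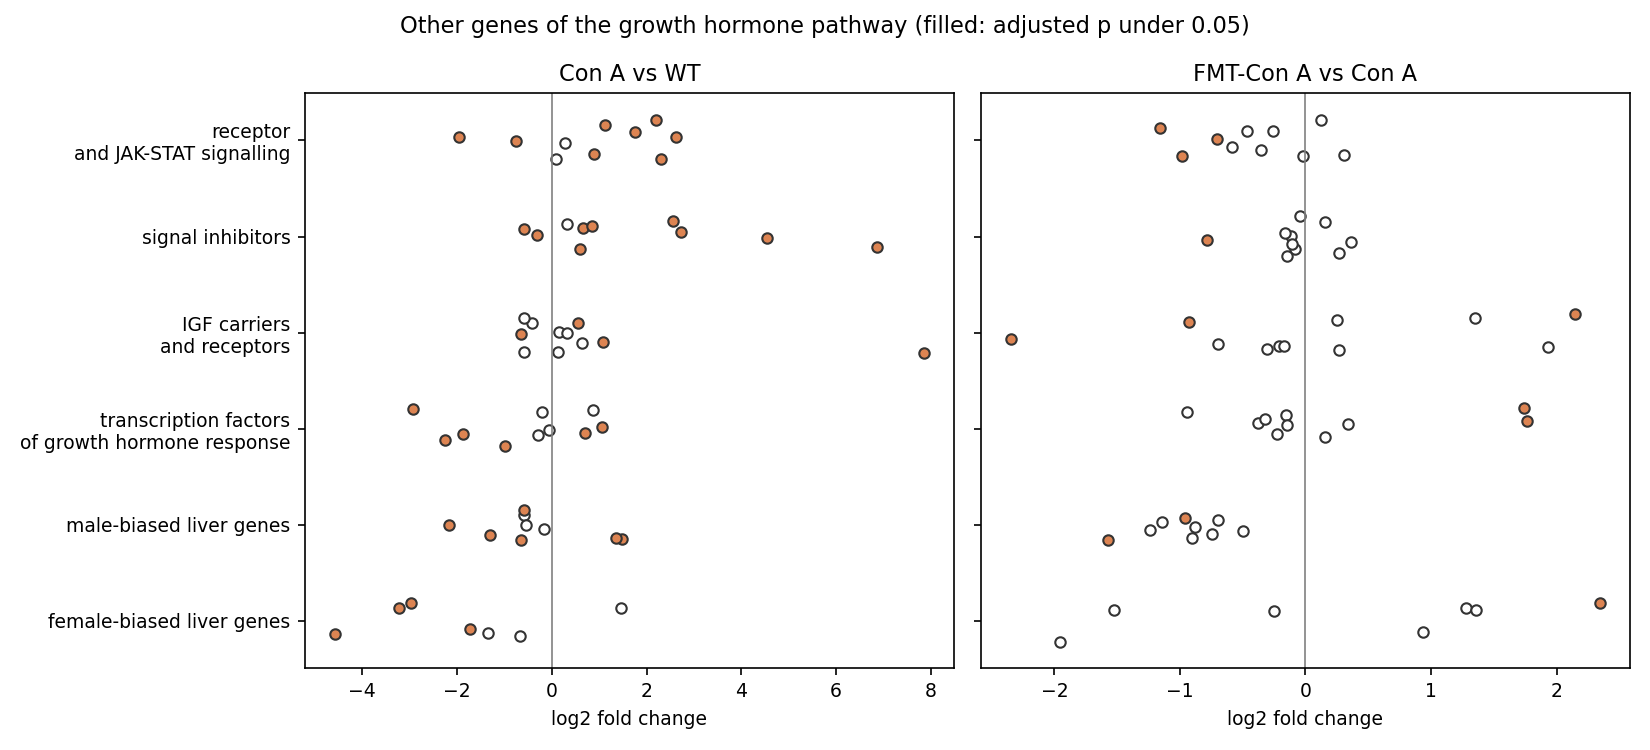
Log2 fold changes of the tested genes in the 6 lists of pathway genes other than the members, for Con A against WT (left) and FMT-Con A against Con A (right), 1 point per gene with vertical scatter only to separate points; filled points had an adjusted p under 0.05. The axes differ in range. Socs1 and Igfbp1 are the rightmost points on the left, at 6.87 and 7.86, and most points on the right are open.

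The carriers of IGF1 did not move together. Of 14 genes for IGF carriers and receptors 11 were tested: 3 rose and 1 fell in Con A, 1 rose and 2 fell from Con A to FMT-Con A, and 3 rose and 1 fell from WT to FMT-Con A, with medians of 0.14, -0.17 and 0.39. In the same order 36.4%, 27.3% and 36.4% of the 11 were called, beside 63.4%, 16.8% and 59.0% of all genes. Igfbp1, an acutely regulated binding protein of hepatocytes, had 2.88 to 9.65 CPM in WT livers, 866 to 2284 in Con A livers and 297 to 314 in FMT-Con A livers. It rose by 7.86 with Con A (SE 0.56, edgeR adjusted p = 2.42e-06) and fell by 2.35 from Con A to FMT-Con A (SE 0.43, adjusted p = 0.00962). So the binding protein rose in the livers where Igf1 and Igfals fell. Igfbp3, the partner in the ternary complex, rose with Con A (1.09, SE 0.23, adjusted p = 0.00234) and was -0.70 between the Con A groups (SE 0.23, adjusted p = 0.0631). Igfbp2 was lower in FMT-Con A than in Con A (-0.93, SE 0.28, adjusted p = 0.0479) and than in WT (-1.51, SE 0.28, adjusted p = 0.00133). Igf2r rose with Con A (0.55, SE 0.16, adjusted p = 0.0121). The receptor gene Igf1r did not pass with Con A (0.63, SE 0.28, adjusted p = 0.0686) and was higher in FMT-Con A than in WT (0.89, SE 0.27, adjusted p = 0.0176). Igfbp6 was higher in FMT-Con A than in Con A (2.15, SE 0.53, adjusted p = 0.0252), and its levels of 5.17, 2.61 and 4.88 CPM followed the muscle sums of those libraries, whose part in it was not tested. Between the Con A groups, the Igfbp6 call was lost without Con A library 1 or 2 or FMT-Con A library 1 or 3 (1.88 to 2.04), and that of Igfbp2 without any 1 library except Con A library 3 (-0.70 to -0.99). The Igfbp2 call there was also lost with only the 6 libraries compared (-0.89), at a minimum count of 50 (-0.90) and with a replicate block (-0.88). Igfbp3 passed there without Con A library 3 (-0.93), in DESeq2's Wald test (-0.70) and without the low-count filter (-0.69). Against WT, Igf1r lost its call without WT library 2 (0.70) or FMT-Con A library 1 (0.67), and Igf2r without WT library 3 (0.47). The Igf1r call against WT was also lost without FMT-Con A libraries 1 and 3 together (0.27). With Con A, Igf1r passed with only the 6 libraries compared (0.62), without FMT-Con A library 2 (0.62) and without both of the others (0.63).

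Of 10 transcription factors tied to the growth hormone response, 2 rose and 4 fell with Con A (median -0.25), 2 rose and 0 fell from Con A to FMT-Con A (median -0.15; 2 higher and 1 lower at an unadjusted p under 0.05), and 2 rose and 3 fell from WT to FMT-Con A (median -0.45). The shares called were 60%, 20% and 50%, beside 63.4%, 16.8% and 59.0% of all genes. Foxa2, a liver pioneer factor, went from 31.7 to 49.8 CPM in WT to 3.87 to 6.30 in Con A livers and 16.3 to 18.7 in FMT-Con A livers. It fell with Con A (-2.93, SE 0.21, edgeR adjusted p = 2.9e-06) and was higher in FMT-Con A than in Con A (1.74, SE 0.21, adjusted p = 0.00218). Cux2, a factor of the female liver, did the same from very low levels, by -1.86 (SE 0.38, adjusted p = 0.00189) and 1.76 (SE 0.38, adjusted p = 0.0166), with under 1.1 CPM in every library. These factors thus took the opposite order to Jak2 between the Con A groups. Onecut1 fell with Con A (-2.25, SE 0.46, adjusted p = 0.0018) and was 0.16 between the Con A groups (adjusted p = 0.834). Bcl6, a repressor of female-biased genes in the male liver, did not pass in either step, at -0.21 (SE 0.24, adjusted p = 0.465) and -0.37 (SE 0.24, adjusted p = 0.291). The higher Cux2 level in FMT-Con A lost its call without Con A library 1 or 3 or FMT-Con A library 1 or 3 (1.58 to 1.90), and that of Foxa2 without FMT-Con A libraries 1 and 3 together (1.64).

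Other male-biased liver genes went both ways in Con A, and most were lower in FMT-Con A than in WT. Of 10 listed genes 9 were tested: 2 rose and 4 fell in Con A (median -0.59), 0 rose and 2 fell from Con A to FMT-Con A (median -0.90; 0 higher and 7 lower at an unadjusted p under 0.05), and 0 rose and 7 fell from WT to FMT-Con A (median -1.34; 0 higher and 7 lower at an unadjusted p under 0.05). Called genes made up 66.7%, 22.2% and 77.8% of the 9, beside 63.4%, 16.8% and 59.0% of all genes. Slco1a1, an organic anion transporter, had 404 to 468 CPM in WT livers, 234 to 389 in Con A livers and 68.1 to 157 in FMT-Con A livers. Its step from Con A to FMT-Con A passed (-1.58, SE 0.33, edgeR adjusted p = 0.0145), and that from WT to Con A did not (-0.55, SE 0.32, adjusted p = 0.158), as for Elovl3. Gstp1 fell at both steps, by 0.59 (SE 0.20, adjusted p = 0.0259) and 0.96 (SE 0.20, adjusted p = 0.0148). Selenbp2 fell with Con A (-2.17, SE 0.45, adjusted p = 0.00203) and was 3.41 lower in FMT-Con A than in WT on the log2 scale (log2 fold change -3.41, SE 0.48). Susd4 fell with Con A (-1.30, SE 0.35, adjusted p = 0.00795). The cytochrome gene Cyp2d9 fell with Con A (-0.65, SE 0.25, adjusted p = 0.0447) and was -0.70 between the Con A groups (adjusted p = 0.0809). Cyp4a12a did not pass in either step, at -0.16 and -0.74 (adjusted p = 0.6 and 0.0683), and was lower in FMT-Con A than in WT (-0.90, SE 0.25, adjusted p = 0.0114). Cyp7b1, an oxysterol hydroxylase, rose with Con A (1.47, SE 0.41, adjusted p = 0.00981), against the direction of Hsd3b5. Calls from Con A to FMT-Con A were lost without Con A library 1, FMT-Con A library 1 or FMT-Con A library 3 for Slco1a1 (-1.31 to -1.38) and Gstp1 (-0.88 to -1.02). That of Slco1a1 was also lost with only the 6 libraries compared (-1.54). Without FMT-Con A library 2, Cyp4a12a (-1.12) and Cyp7b1 (-1.59) passed there, and without Con A library 3, Cyp2d9 (-0.94) and Cyp7b1 (-1.42). Cyp2d9, Cyp4a12a and Cyp7b1 also passed there in DESeq2's Wald test (-0.70, -0.74 and -1.14) and without the low-count filter (-0.68, -0.73 and -1.13). Leaving out FMT-Con A libraries 1 and 3 together ended the calls against WT of Cyp4a12a (-0.34) and Cyp2d9 (-1.13) and that of Cyp2d9 with Con A (-0.65). With Con A, Cyp2d9 lost its call without any 1 library except Con A library 1 and FMT-Con A library 2 (-0.39 to -0.74), and with only the 6 libraries compared (-0.66). Slco1a1 passed with Con A without FMT-Con A library 2 (-0.56), with only the 6 libraries compared (-0.56) and without both of the other FMT-Con A libraries (-0.55).

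None of the 7 tested female-biased genes rose against WT. Of 13 listed genes only 7 had enough reads to be tested: 0 rose and 4 fell with Con A (median -1.73; 0 higher and 4 lower at an unadjusted p under 0.05), 1 rose and 0 fell from Con A to FMT-Con A (median 0.93; 1 higher and 0 lower), and 0 rose and 3 fell from WT to FMT-Con A (median -0.87; 0 higher and 4 lower). Called shares of the 7 were 57.1%, 14.3% and 42.9%, each under the 63.4%, 16.8% and 59.0% of all genes. Cyp2a4 fell with Con A from 25, 4.44 and 75.9 CPM to between 0.662 and 2.76 CPM (-4.59, SE 0.92, edgeR adjusted p = 0.00158). Acot3 fell with Con A (-2.96, SE 0.80, adjusted p = 0.00848), with overlapping libraries. Cyp2b13 was lower in FMT-Con A than in WT (-3.31, SE 0.96, adjusted p = 0.0138), from levels under 1 CPM. Cyp2b9 fell with Con A (-1.73, SE 0.68, adjusted p = 0.0467) at 0.621 to 6.81 CPM and did not pass from Con A to FMT-Con A (1.28, SE 0.68, adjusted p = 0.21). Its fall was called no longer without WT library 1 or 3, Con A library 1 or 3 or FMT-Con A library 3 (-1.19 to -1.79). A replicate block also ended that call (-1.53). Leaving out FMT-Con A libraries 1 and 3 together ended the calls in FMT-Con A against WT for Cyp2b13 (-3.66), Acot3 (-2.83) and Cyp2a4 (-3.38), which were all 3 of the falls counted there.

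Over all 6 lists, 57 of 67 genes were tested. In Con A against WT 64.9% of them were called (20 higher and 17 lower), beside 63.4% of all genes. In FMT-Con A against Con A 21.1% were called (4 higher and 8 lower), beside 16.8%, and in FMT-Con A against WT 59.6% (17 higher and 17 lower), beside 59.0%. These shares are close to the background, so the lists as a whole do not stand apart from other genes, and the values of single genes carry the description. Without FMT-Con A libraries 1 and 3, no member and no listed gene passed edgeR's test in FMT-Con A against Con A (4 members and 16 listed genes at an unadjusted p under 0.05), and 99 genes in all did.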

How the data were processed

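Mouse liver RNA was sequenced in 9 libraries as polyadenylated RNA, with paired 150-base reads, per the labels' protocols. The deposited values are whole-number read counts per gene, made by the authors with CASAVA, HISAT2 and featureCounts on GRCm38 (mm10), per the submitters' processing notes. Versions, strand setting and the treatment of reads matching several genes are not given in the sources used here. Numbered gene models without an Ensembl identifier, 1.43 to 1.98% of counts, stayed in the totals. Symbols and positions came from the GRCm38 annotation, and promoter sequences from RefSeq tables of GRCm38.p6.

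Counts were fitted in edgeR 4.0.16 (R 4.3.3, limma 3.58.1): TMM scaling, filterByExpr (minimum count 10, total 15), all 9 libraries in 1 quasi-likelihood fit with 6 residual degrees of freedom, two-sided F tests, Benjamini-Hochberg adjustment over 17704 genes, threshold 0.05, prior count 0.125. Each SE was obtained by dividing the size of the log2 fold change by the root of its F. DESeq2 1.42.0, other scalings and filters, a replicate block and leaving out each library were alternatives.

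Groups follow the labels. The 10 members and all gene lists were chosen with earlier results of these data known. Named genes are all members, 16 pathway genes named whatever their p, and the 3 with the lowest p past the threshold in each pathway list and comparison. For Ghr, Igf1 and Hsd3b5, the 3 protein-coding genes with the highest correlation of log2 CPM (prior count 2) were added. Mup17, the antisense genes, Alb and the genes of the closing observations were named after their values were seen. Some genes that this rule names are not reported here.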

Additional observations from a re-analysis of the deposited data

How the results depend on the processing

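Counts of calls for Con A against WT, FMT-Con A against Con A and FMT-Con A against WT were 11219, 2981 and 10449 over all genes, and ran from 9937 to 12101, 664 to 4053 and 9060 to 11349 when 1 library was left out. The members gave 5 to 7, 2 to 6 and 8 to 10 calls, and the pathway genes 32 to 41, 4 to 21 and 31 to 38. For FMT-Con A against Con A, the 6 compared libraries alone called 1156 genes. DESeq2's Wald test called 5 members and 20 pathway genes, and fitting without the low-count filter called 19 pathway genes. Without FMT-Con A libraries 1 and 3, an alternative chosen after seeing the data that assumes the lone library varies like the other groups, the counts were 99 genes, 0 members and 0 pathway genes, and FMT-Con A against WT called 6957 genes. The share of higher calls for FMT-Con A against Con A was 37.2%, and 23.6% without Con A library 1, 22.7% without FMT-Con A library 1, 47.1% without library 2, 25.4% without library 3 and 28.0% with 6 libraries. With a replicate block the counts were 11093, 2663 and 10207 genes, 7, 3 and 9 members and 36, 15 and 36 pathway genes. Igf1r then passed in Con A against WT, at 0.67. Numbers did not pair the libraries: correlations of same-numbered libraries ran from -0.216 to 0.344, and 4 of 9 libraries correlated best with their own number. Directions that turned had small or uncalled values, and the cause was not tested. For Con A against WT, Stat5b became -0.013 at a minimum count of 50 and ran from -0.052 (without Con A library 1) to 0.228 when 1 library was left out. For FMT-Con A against Con A, Prlr became 0.013 at a minimum count of 50 and 0.017 with 6 libraries. With 1 library left out it ran from -0.319 to 0.126, Socs3 from -0.288 to 0.214, and Socs2 from -0.077 (without FMT-Con A library 2) to 0.72. Without FMT-Con A libraries 1 and 3, Igf1 became 0.226, Prlr 0.46, Socs3 0.178, Igf1r -0.359 and Cyp2b9 -0.198. For FMT-Con A against WT, leaving out 1 library gave -0.275 to 0.066 for Cux2, -0.125 to 0.676 for Cyp7b1 and -0.926 to 0.107 for Cyp2b9. The summed Mup difference ran from -0.58 to 0.11, -0.84 to -0.14 and -1.11 to -0.51 when 1 library was left out, 0.11 being Con A against WT without Con A library 3. DESeq2 size factors and scaling without muscle and mitochondrial genes turned no member's direction. Depth limits Mup4, Elovl3 and Hsd3b5 in FMT-Con A.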

Other observations

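The families of Elovl3 and Hsd3b5 held 8 tested relatives of 12 listed. Of these, 1 rose and 5 fell in Con A against WT, 0 rose and 1 fell from Con A to FMT-Con A (0 higher and 3 lower at an unadjusted p under 0.05 in edgeR), and 1 rose and 6 fell from WT to FMT-Con A. Of the 8 relatives 75%, 12.5% and 87.5% were called, beside 63.4%, 16.8% and 59.0% of all genes. Hsd3b2 went from 121, 136 and 124 CPM in WT to 4.24, 3.20 and 1.28 in Con A livers and 1.48, 1.61 and 1.60 in FMT-Con A livers, so its fall came with Con A (-5.46, SE 0.34, edgeR adjusted p = 1.23e-06). Hsd3b3 fell at both steps like Hsd3b5, by 3.69 (SE 0.45, adjusted p = 6.73e-05) and 1.57 (SE 0.42, adjusted p = 0.0335) on the log2 scale. The second of these lost its call without any 1 library except Con A libraries 2 and 3 or FMT-Con A library 2 (-0.93 to -1.54), and with only the 6 libraries compared (-1.53). Hsd3b genes are close relatives and may exchange reads. Elovl6, which elongates palmitate, fell with Con A (-1.71, SE 0.18, adjusted p = 2.84e-05) and was 0.24 between the Con A groups, where Elovl3 fell. Elovl7 rose with Con A (2.90, SE 0.63, adjusted p = 0.00271) from under 0.4 CPM.

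Some Mup genes differed widely within a group. Mup19 had 0.662, 286 and 0.800 CPM in the 3 FMT-Con A libraries and 6.72, 210 and 74.1 in WT. Mup4 ran from 22 to 197 CPM in WT, and Mup16 from 121 to 581.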
